A study of Homo sapiens with 2 samples.

Results

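The 46 genes described here encode the kinases, spindle and cytokinesis proteins and ubiquitin ligase parts that carry a cell through mitosis, together with the transcription factors that switch many of them on. They were chosen by name, with earlier results of these data known, and all 46 names were found among the 53737 genes of each table. Of the 46, 33 are mitotic regulators and 13 are core subunits of the anaphase-promoting complex, also called the cyclosome and abbreviated APC/C. RNA came from the Ewing sarcoma line SK-ES-1 (an established line, tissue bone, genotype WT), in 1 library of slow-cycling cells, labelled SCCs, and 1 of cells labelled non-SCCs. The column headers call these LRC and non-LRC, abbreviations that the sources used here do not explain, and they do not give how the slow-cycling cells were separated. There is 1 library per group, so no difference has a replicate error or a p-value. Read depth is unknown.

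Levels are in per-million units, obtained by undoing the log2 scale of the deposited values, and the log2 ratio is log2(units + 1) in SCCs minus that in non-SCCs. All 46 genes passed the filter of at least 1 unit in at least 1 library, as did 13444 genes in all, and 44 of the 46 were at 16 units or more in both libraries, as were 7531 genes in all. The libraries carried the markers of the labelled cell type: all 9 Ewing sarcoma markers were detected, with summed levels of 2331 units in SCCs and 2383 in non-SCCs. Of the 9, 4 had a log2 ratio above 0 and 5 below, and 1 was 1.2-fold lower (7.59% of tested genes were). The marker counts here are to be read against the 56.2% of all tested genes above 0. Of 7 fibroblast markers, 6 were tested and all 6 were higher in SCCs, with summed levels of 224 and 207 units. Of the 6, 4 were at least 1.2-fold higher, where 17.4% of tested genes were, and these 4 were below 16 units. LUM was at 0.0175 units in SCCs and listed at 0 in non-SCCs. Of 5 leukocyte markers, PTPRC and CD3E were listed at 0 in both libraries. The other 3 were at least 1.2-fold higher in SCCs, all below 16 units, with summed levels of 15.1 and 9.66 units. All 4 endothelial markers were listed at 0 in both. The part of these markers in the differences below was not tested.

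Mitosis is driven by kinases and ended by destruction. The Aurora and Polo-like kinases build the spindle and drive chromosome alignment and cytokinesis, and the APC/C then marks securin and the mitotic cyclins for degradation, first with its activator CDC20 and later with FZR1 (also called CDH1). Transcripts of most mitotic regulators accumulate in G2 and mitosis and are kept low in G1 and in resting cells by the DREAM complex, whose MuvB core binds a promoter sequence called the cell cycle genes homology region (CHR). MuvB also works with B-MYB and FOXM1 to activate the same genes later in the cycle, often together with the CCAAT-binding factor NF-Y. Core subunits of the APC/C are needed throughout the cycle, and their transcripts are generally described as constitutive.

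The promoters of the members are shown first. Their letters were not used to choose the genes and do not depend on the RNA values. The regulators, though, belong to a class known for control through the CHR, as described above. More matches than in all genes were thus likely from the choice of the list, and are no independent support. RefSeq promoter windows, from 250 bases before to 50 after the annotated start (GRCh38.p14), were matched for 40 of the 46 genes, 27 regulators and all 13 core subunits. AURKA, TPX2, BIRC5, UBE2C, RACGAP1 and FOXM1 were not matched. The stretches below are 30 bases long, 5′ to 3′ on the gene's strand, from the regulators whose window holds a CHR match on that strand beginning within 70 bases before the start. Capitals mark the CHR match (TTTGAA on either strand), and the genes are ordered from the highest to the lowest log2 ratio.
CKAP2L: acaggcgcggcgTTTGAAgaaaaactgtca
HMMR: gggagaTTTGAATTTGAAaccggtagggag
CDCA8: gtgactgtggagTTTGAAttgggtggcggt
PLK1: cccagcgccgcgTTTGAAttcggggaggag
PRC1: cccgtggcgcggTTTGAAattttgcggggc
CDC20: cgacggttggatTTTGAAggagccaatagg
ANLN: ctgaaaTTCAAATTTGAAcggctgcagagg
INCENP: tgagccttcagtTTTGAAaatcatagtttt
ESPL1: cagccgcggataTTTGAAaggagggtctgg
MKI67: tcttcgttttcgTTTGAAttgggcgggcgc

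These 10 genes were printed because they hold the same 6 letters, so the recurrence follows from that choice. They include a spindle protein, a mitotic kinase, a passenger protein and an APC/C activator. In CKAP2L, a spindle and centrosome protein, the printed stretch lies at chr2:112764609-112764638, minus strand, and the CHR match inside it begins 17 bases before the start. In PLK1, Polo-like kinase 1, the stretch lies at chr16:23678848-23678877, plus strand, and its CHR match begins 29 bases before the start. HMMR, a spindle-binding protein, holds 2 copies in direct succession (chr5:163460598-163460627, plus strand). ANLN, the actin-binding protein anillin, holds the sequence on both strands back to back (chr7:36389830-36389859, plus strand).

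Over the whole window, a CHR match (TTTGAA, or its less common variant TTCGAA, both strands) was present in 20 of the 27 regulators and in 3 of the 13 core subunits. It was present in 16.4% of all windows and in 15.3% of the tested genes that had one. The NF-Y box (CCAAT, both strands) was present in 21 of 27 regulators and 5 of 13 core subunits, against 43.4% of tested genes. Both matches in the same window were found in 16 regulators and in 0 core subunits, against 6.47% of tested genes. An E2F-type match (the core GCGGGAA, the related core GCGCGAA or the third variant searched, GCGCCAA, both strands) was present in 4 of 27 regulators and 5 of 13 core subunits, against 21.6% of tested genes and 20 of 22 genes of a list of DNA synthesis. The 3 motifs can overlap, genes with several annotated starts have several windows, and a match is a run of letters and not a measured binding site.

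The spacing is seen in longer stretches of the 120 bases before the start, in which capitals mark every CHR, NF-Y and E2F-type match. CDC20 (chr1:43358861-43358980, plus strand) and MKI67 (chr10:128126424-128126543, minus strand) have CHR and NF-Y matches, NEK2 (chr1:211675622-211675741, minus strand) has NF-Y boxes alone, CDC16 (chr13:114234777-114234896, plus strand) has 1 E2F-type match and ANAPC7 (chr12:110403709-110403828, minus strand) has none of them in this stretch. Farther out in their windows, ANAPC7 has a CHR match 236 bases before the start and CDC16 an NF-Y box 183 bases before. CDC20 has another CHR match 178 bases before.
CDC20: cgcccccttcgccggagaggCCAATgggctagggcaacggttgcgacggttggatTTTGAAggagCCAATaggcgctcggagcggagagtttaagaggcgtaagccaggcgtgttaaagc
MKI67: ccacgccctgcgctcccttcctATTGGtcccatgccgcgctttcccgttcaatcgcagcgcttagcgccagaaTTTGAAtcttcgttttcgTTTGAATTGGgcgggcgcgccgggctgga
NEK2: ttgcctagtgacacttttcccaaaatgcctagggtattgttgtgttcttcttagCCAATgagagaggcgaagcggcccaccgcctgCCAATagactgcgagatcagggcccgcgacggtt
CDC16: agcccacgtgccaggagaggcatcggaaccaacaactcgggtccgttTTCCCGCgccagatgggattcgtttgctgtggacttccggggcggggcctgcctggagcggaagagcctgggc
ANAPC7: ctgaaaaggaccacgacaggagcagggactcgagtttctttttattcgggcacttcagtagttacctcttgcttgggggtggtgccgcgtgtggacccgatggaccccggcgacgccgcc

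**Figure D1:**
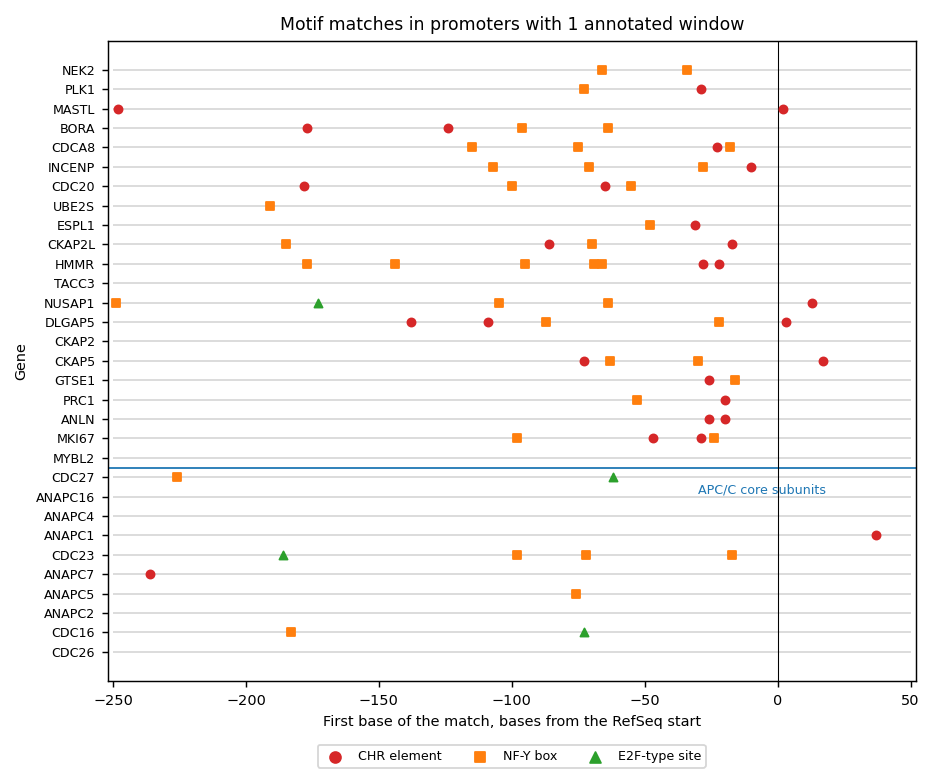
First base of each motif match in bases from the RefSeq start (x axis) for the 31 members with 1 annotated promoter window (y axis), 21 regulators above and 10 core subunits below the blue line. Red circles are CHR matches, orange squares NF-Y boxes and green triangles E2F-type matches. Red circles crowd into the last 50 bases before the start in regulators, and the core subunits have CHR matches only in ANAPC1 and ANAPC7, away from that stretch.

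In a narrower stretch from 50 bases before to 20 after the start, chosen after the positions were seen, 15 regulators and 0 core subunits held a CHR match, against 3.91% of all windows. No statement about binding of any factor in these cells follows from the letters, and binding was not measured.

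The regulators as a group were higher in SCCs and the core subunits were slightly lower. Of 33 regulators, 30 had a log2 ratio above 0, where 56.2% of all tested genes did, and 12 were at least 1.2-fold higher, where 17.4% of all tested genes were. Among genes at 16 units or more in both libraries, a level range that holds all regulators but BORA, the shares were 47.3% above 0 and 5.96% at least 1.2-fold higher. No regulator was 1.2-fold lower, where 7.59% of tested genes and 5.64% of genes at 16 units or more were. None was 1.5-fold higher, where 5.38% of tested genes but only 43 of the 7531 genes at 16 units or more were. The median log2 ratio of the regulators was 0.21, and the median over all tested genes was 0.03. Their levels summed to 4862 units in SCCs and 4219 in non-SCCs. In RNA from many cells, more cells in G2 or mitosis and more RNA of these genes per cell cannot be told apart.

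**Figure D2:**
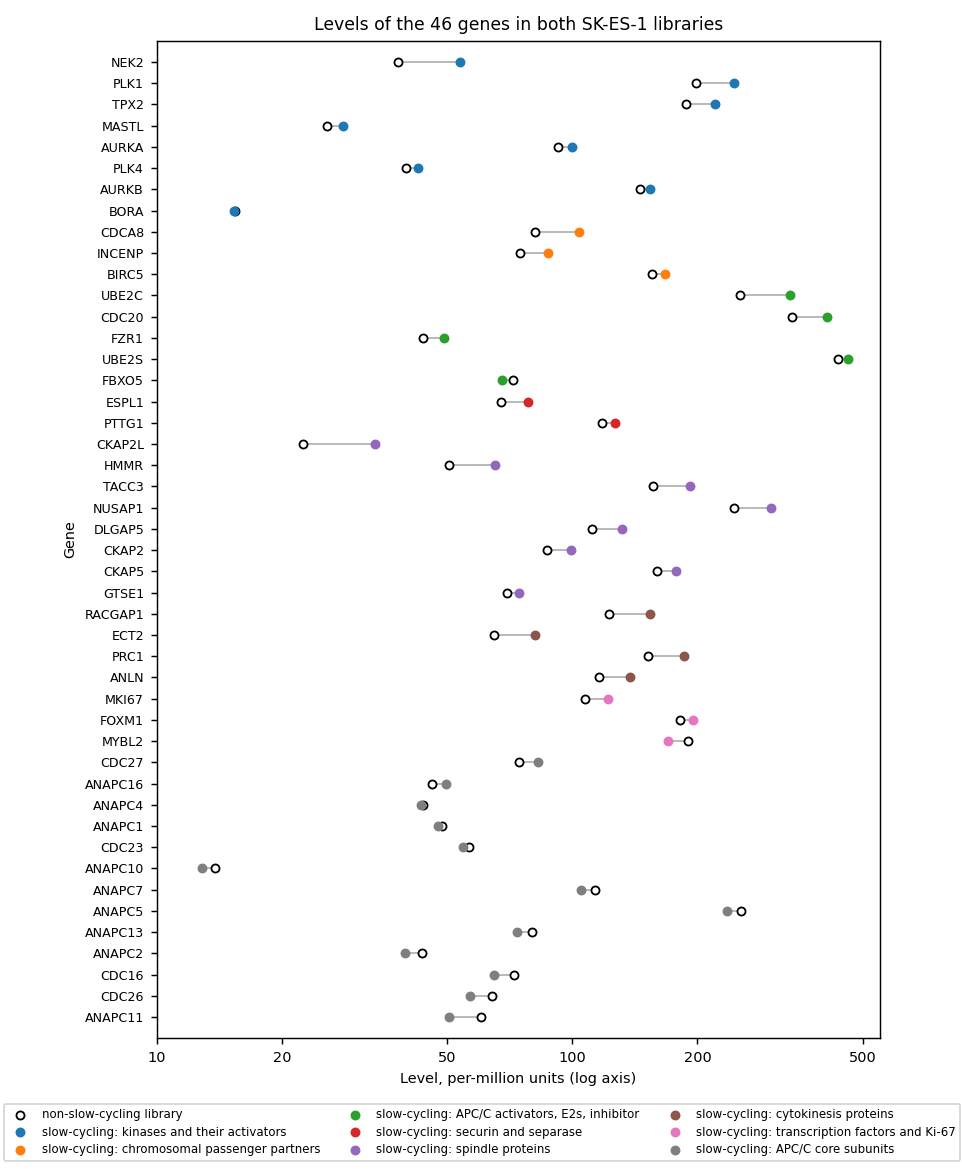
Level of each of the 46 genes in per-million units (log axis), with open circles for the non-slow-cycling library and filled circles, coloured by role, for the slow-cycling library. Filled circles lie to the right of open ones in 30 of 33 regulators and to the left in 11 of 13 core subunits.

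Among the kinases, the largest difference was in NEK2, which separates duplicated centrosomes at mitotic entry (chromosome 1, 211658256 to 211675621). NEK2 was at 53.7 units in SCCs and 38.1 in non-SCCs, a log2 ratio of 0.48, above that of 98.9% of genes at 16 units or more in both libraries. PLK1, which acts from mitotic entry to cytokinesis (chromosome 16, 23678889 to 23690367), was at 245 and 198 units, a log2 ratio of 0.31. These were the only 2 of the 8 kinases and kinase activators that were 1.2-fold higher as reported here. TPX2, which brings Aurora A to spindle microtubules and activates it, was at 221 and 187 units, a log2 ratio of 0.24. With the median ratio in 20 bins of level set to 0, TPX2 was at 0.31 and also past 1.2-fold.

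The Aurora kinases themselves differed less than NEK2 and PLK1. AURKA, the kinase of centrosomes and spindle poles, was at 99.9 units in SCCs and 92.4 in non-SCCs, a log2 ratio of 0.11. AURKB, the kinase of the chromosomal passenger complex, was at 153 and 145 units, a log2 ratio of 0.08 that was 0.15 with level bins set to 0 and 0.18 with level, length and GC trends removed. PLK4, the master kinase of centriole duplication, was at 42.5 and 39.9 units, and MASTL (Greatwall), which holds the phosphatase PP2A in check during mitosis, at 28.0 and 25.8 units. Both had log2 ratios near that of Aurora A, 0.09 for PLK4 and 0.12 for MASTL. BORA, the partner with which Aurora A activates PLK1, was at 15.4 units in both libraries, a log2 ratio of -0.01 (-0.06 with level bins set to 0). Reads of BORA and MASTL can be shared with overlapping genes, DIS3 over 4028 bases and ACBD5 over 5116 bases, since it is not given whether the counting used strand.

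The passenger complex places Aurora B on centromeres and later on the spindle midzone. Its borealin subunit CDCA8 was at 104 units in SCCs and 81.2 in non-SCCs, a log2 ratio of 0.35. The scaffold INCENP was at 87.3 and 74.7 units, a log2 ratio of 0.22. Survivin, BIRC5, was at 167 and 156 units, a log2 ratio of 0.10 that was 0.18 with level bins set to 0 and 0.16 with trends removed. All 3 partners were higher, as was AURKB, but the 4 genes of this complex did not differ by the same amount, from 0.08 for the kinase to 0.35 for borealin. Borealin was the highest of the 4 under both corrections too, and with trends removed BIRC5 was the lowest.

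Differences were also unequal within the APC/C pathway. UBE2C, the enzyme that places the first ubiquitins on APC/C substrates (chromosome 20, 45812644 to 45816952), was at 334 units in SCCs and 254 in non-SCCs, a log2 ratio of 0.40. UBE2S, which extends the chains, was at 459 and 436 units, a log2 ratio of 0.08 (0.16 with level bins set to 0). It overlaps RPL28, a ribosomal protein gene, over 3598 bases. The mitotic activator CDC20 was at 410.2 and 337 units, a log2 ratio of 0.28, and the late activator FZR1 was at 49.1 and 43.7 units, a log2 ratio of 0.16.

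FBXO5 (EMI1), an APC/C inhibitor of S phase and G2 that is a known E2F target, was 1 of the 3 regulators with a ratio below 0. It was at 67.8 units in SCCs and 72.0 in non-SCCs, a log2 ratio of -0.09. Securin, PTTG1, which blocks separase until anaphase, was at 127 and 118 units, a log2 ratio of 0.10 (0.18 with level bins set to 0 and 0.21 with trends removed). Separase, ESPL1, the protease that cuts cohesin, was at 78.4 and 67.5 units, a log2 ratio of 0.21.

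The 13 core subunits form the contrast. Of the 13, 11 had a log2 ratio below 0, where 43.8% of tested genes and 52.7% of genes at 16 units or more did, and 0 were 1.2-fold apart in either direction (7.59% of tested genes were at least 1.2-fold lower). The median log2 ratio of the 13 was -0.11, and their levels summed to 916 units in SCCs and 971 in non-SCCs. The median of the regulators was 0.32 above that of the core subunits on the log2 scale. Of the 33 regulators, 21 were above the highest core subunit, CDC27, and the ranges overlapped: the lowest regulator, MYBL2, was above only 2 core subunits, ANAPC11 and CDC26. With level bins set to 0 the median of the core subunits was -0.06.

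By role within the complex, the catalytic pair went the same way. The cullin-like subunit ANAPC2 was at 39.7 units in SCCs and 43.6 in non-SCCs, a log2 ratio of -0.13. The RING subunit ANAPC11, which receives the ubiquitin-conjugating enzyme (chromosome 17, 81890790 to 81900533), was at 50.4 and 60.2 units, a log2 ratio of -0.25 and the lowest of all 46 genes. ANAPC11 overlaps ALYREF over 798 bases, and ALYREF was itself at -0.29.

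The substrate-recognition subunit ANAPC10 was at 12.8 and 13.8 units, a log2 ratio of -0.10 (-0.17 with level bins set to 0). The scaffold subunits ANAPC1, ANAPC4 and ANAPC5 had log2 ratios of -0.03, -0.02 and -0.12, where ANAPC5 was at -0.03 with level bins set to 0 and ANAPC1 at -0.09 with trends removed. The tetratricopeptide-repeat subunits, which form the arc on which the activators dock, split. CDC16 was at 64.8 units in SCCs and 72.6 in non-SCCs, a log2 ratio of -0.16, ANAPC7 was at -0.11 and CDC23 at -0.05. CDC27, to which the activators bind, was at 82.6 and 74.5 units, a log2 ratio of 0.15. CDC27 and ANAPC1 have near-identical genomic copies, so their levels are uncertain.

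The small subunits split as well. CDC26 had a log2 ratio of -0.17 and ANAPC13 of -0.12 (-0.08 and -0.06 with trends removed), whereas ANAPC16 was at 49.7 units in SCCs and 45.9 in non-SCCs, a log2 ratio of 0.11. ANAPC16 and CDC27 were thus the 2 core subunits above 0, and ANAPC16 overlaps ASCC1 over 1123 bases. CDC23 and the mitotic kinesin gene KIF20A overlap over 74 bases at the 3′ end of CDC23, and they differed in direction: KIF20A was at 90.7 and 77.0 units, a log2 ratio of 0.23, beside -0.05 for CDC23.

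**Figure D3:**
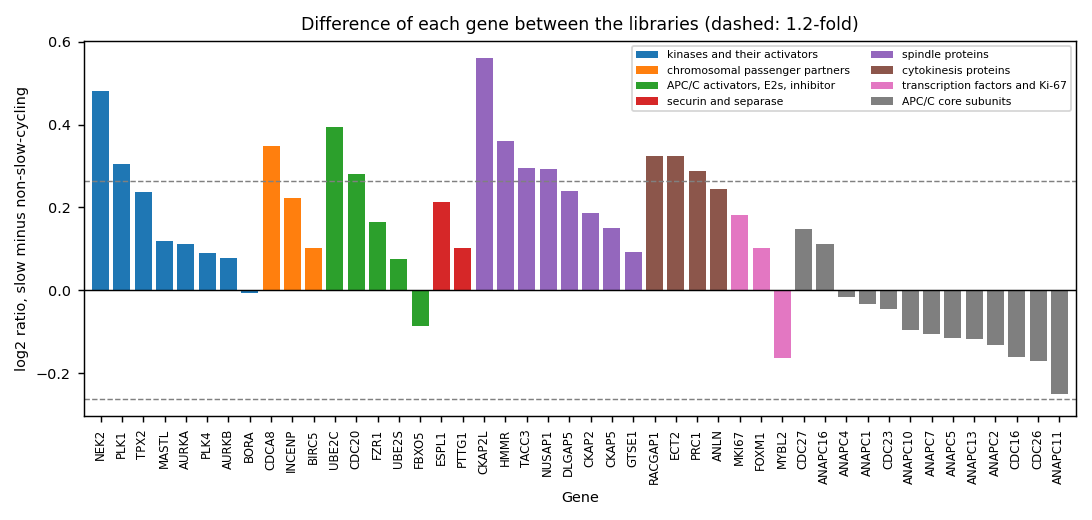
The log2 ratio (slow-cycling minus non-slow-cycling, y axis) of each of the 46 genes (x axis), coloured by role, with dashed lines at 1.2-fold. The 12 bars above the upper line all belong to regulators, led by CKAP2L at 0.56 and NEK2 at 0.48, and 11 of the 13 grey bars of the core subunits point down.

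Spindle proteins held the largest single ratio as reported; with trends removed it was that of UBE2C, at 0.52. CKAP2L (chromosome 2, 112736349 to 112764609) was at 33.6 units in SCCs and 22.4 in non-SCCs, a log2 ratio of 0.56, above that of 99.3% of genes at 16 units or more in both libraries. Its relative CKAP2, also a spindle protein, was at 99.1 and 86.8 units, a log2 ratio of 0.19. HMMR, which helps set spindle orientation and pole assembly, was at 65.1 and 50.5 units, a log2 ratio of 0.36. The 8 spindle genes were all above 0, and 4 of them were 1.2-fold higher.

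The other 2 of these 4 were TACC3 and NUSAP1. TACC3, which with CKAP5 and clathrin bridges kinetochore fibre microtubules, was at 192 units in SCCs and 156 in non-SCCs, a log2 ratio of 0.29. NUSAP1, which bundles microtubules near chromatin, was at 301 and 246 units, also a log2 ratio of 0.29. The partner CKAP5, a microtubule polymerase that cells use throughout the cycle, was at 177 and 159.7 units, a log2 ratio of 0.15. DLGAP5 (HURP), which stabilises kinetochore fibres, was at 132 and 111 units, a log2 ratio of 0.24, and GTSE1, a microtubule-binding protein of G2 and mitosis, at 74.3 and 69.6 units, a log2 ratio of 0.09.

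The 4 cytokinesis genes had the narrowest range of the role groups, with log2 ratios from 0.24 to 0.32. RACGAP1, which with the kinesin KIF23 forms centralspindlin at the midzone, was at 154 units in SCCs and 123 in non-SCCs. ECT2, the exchange factor that centralspindlin recruits to activate RhoA, was at 81.1 and 64.6 units. PRC1, which crosslinks the antiparallel microtubules of the midzone, was at 186 and 152 units. These 3 were 1.2-fold higher, and ANLN, which links the contractile ring to the membrane, was just short of that at 137 and 116 units, and past it with level bins set to 0.

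The transcription factors differed less than many genes they are known to activate, or in the other direction. FOXM1, which activates G2 and mitosis genes, was at 195 units in SCCs and 182 in non-SCCs, a log2 ratio of 0.10 (0.18 with level bins set to 0). It overlaps ITFG2 over 2112 bases and RHNO1 over 910 bases. MYBL2 (B-MYB), known to be induced by E2F at the entry to S phase, was at 169.9 and 190.2 units, a log2 ratio of -0.16 and the lowest of the regulators (-0.09 with level bins set to 0). MKI67, which encodes the proliferation antigen Ki-67 that coats mitotic chromosomes, was at 122 and 107 units, a log2 ratio of 0.18.

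**Figure D4:**
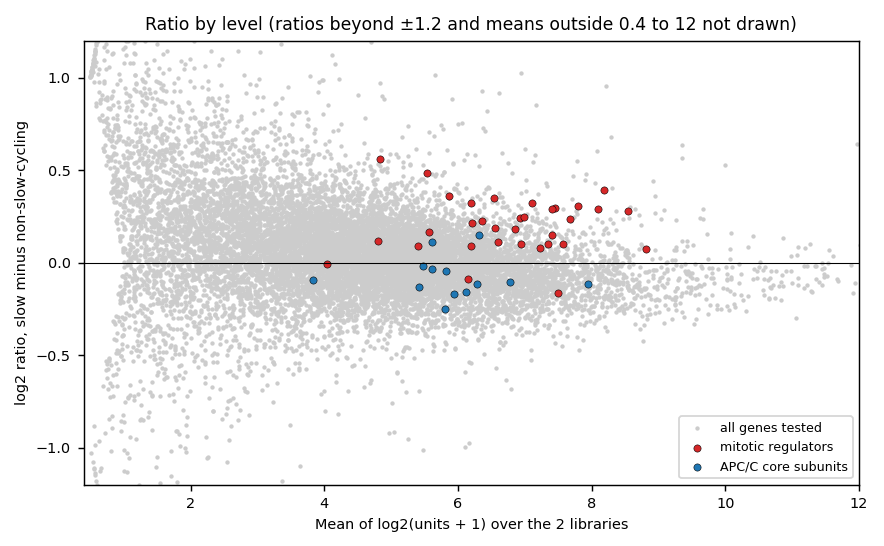
The log2 ratio (y axis) against the mean of log2(units + 1) over the 2 libraries (x axis) for all tested genes in grey, the 33 regulators in red and the 13 core subunits in blue. Both groups lie at levels where the grey cloud is narrow and centred near 0. Most red points lie above 0 and most blue points slightly below 0, within the range of the cloud.

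Level and transcript length are given beside the ratios. Across the 33 regulators, Pearson's r of the log2 ratio with the log2 mean level was 0.00, a description across genes of 2 shared libraries. Median transcript length was 3112 bases in regulators and 3045 in core subunits (longest GENCODE transcript), against 3464 for genes at 16 units or more. Over the latter genes the median log2 ratio went from -0.09 in the 25% with the shortest transcripts to 0.05 in the 25% with the longest. The 5 regulators of the shortest class had a median of 0.28 and the 4 core subunits there a median of -0.17, and the 4 regulators of the longest class had a median of 0.17 beside -0.03 for 3 core subunits. Of the classes between, the shorter had medians of 0.18 (12 regulators) and -0.11 (3 core subunits). The longer had medians of 0.24 (11 regulators) and 0.05, above 0, for its 2 core subunits.

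Promoter letters and ratios were set side by side for the 27 matched regulators. The 16 with CHR and NF-Y matches in the same window had a median log2 ratio of 0.26, and 8 of them were 1.2-fold higher. The 11 without had a median of 0.12, and 2 of them, NEK2 and TACC3, were 1.2-fold higher. FBXO5 and BORA held both motifs and were below 0. Among all matched genes at 16 units or more, those with both motifs had a median of 0.03 (400 genes, members included), with 14.0% at least 1.2-fold higher, and those without had a median of -0.01 (5747 genes), with 5.34% as high. MYBL2, CKAP2 and TACC3 held none of the 3 motifs in their windows.

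Genes outside the 46 that work with them were counted from lists, to be read against the 56.2% of all tested genes above 0, the 17.4% at least 1.2-fold higher and the 7.59% at least 1.2-fold lower. Of 8 genes of the mitotic entry switch, 7 were above 0 and 1 was 1.2-fold higher. That 1 was CDC25C, the phosphatase that activates CDK1, at 29.3 units in SCCs and 22.4 in non-SCCs, while CDK1 and the cyclin CCNB2 had log2 ratios of 0.21 and 0.22. Of 8 further partners of Aurora, Polo and passenger proteins, 7 were above 0, and the shugoshins SGO1 and SGO2, protectors of centromeric cohesion, were 1.2-fold higher with log2 ratios of 0.58 and 0.40. KIF2C, a microtubule-depolymerising kinesin regulated by Aurora B, was at 0.24.

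The further cytokinesis genes were all 7 above 0, and 4 of them were 1.2-fold higher, led by KIF14 at 0.51, KIF23 at 0.32 and CIT at 0.31. Of 11 further spindle genes, 8 were above 0, and 2, ASPM at 0.53 and KIF11 at 0.27, were 1.2-fold higher, while the augmin subunit HAUS1 was at -0.25. Genes around MASTL were less one-sided. Of 6 genes of the Greatwall and PP2A pathway, 2 were above 0 and none was 1.2-fold apart, and the MASTL substrate ENSA was at -0.14, the PP2A scaffold PPP2R1A at -0.12 and its regulatory subunit PPP2R2A at 0.11.

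Of 6 further APC/C genes, 4 were above 0 and none was 1.2-fold apart, with MAD2L1BP, which helps silence the spindle checkpoint, at -0.17, BUB3 at 0.15 and BUB1B at 0.13. Of 9 MuvB, DREAM and E2F genes, 5 were above 0, none was 1.2-fold higher and 2 were 1.2-fold lower. The 2 were the MuvB subunit LIN52, at 15.3 units in SCCs and 19.6 in non-SCCs, and the E2F partner TFDP1, at 127 and 157 units. LIN54, the MuvB subunit that contacts the CHR, had a log2 ratio of 0.24. Over all 55 of these genes the median log2 ratio was 0.14, with 40 above 0. Of the 55, 9 were 1.2-fold higher (16.4%, near the share of all tested genes) and 2 were 1.2-fold lower (3.64%). The share of all tested genes includes many at low levels, whereas most of the 55 were at 16 units or more in both libraries. In that level range only 5.96% of genes were 1.2-fold higher, so beside genes of similar level the 16.4% was the larger share. Of the 9, all but SGO1 were in that range.

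Genes of DNA synthesis lay on the other side of 0. Of 26 S phase genes, 25 had a log2 ratio below 0 and 6 were 1.2-fold lower, and 1 was 1.2-fold higher. Their median was -0.15, which is 0.37 below the median of the regulators and 0.05 below that of the APC/C core subunits. The 3 with the largest differences were CCNE2, at -0.37, and the helicase subunits MCM5 and MCM6, at -0.36 and -0.35. The gene that went the other way was CDT1, the licensing factor that is removed as S phase begins, at 48.4 units in SCCs and 39.3 in non-SCCs. Of the 33 regulators, 10 had a ratio above that of every S phase gene. This count rests on CDT1, at 0.29, as the other 25 S phase genes were below 0.

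**Figure D5:**
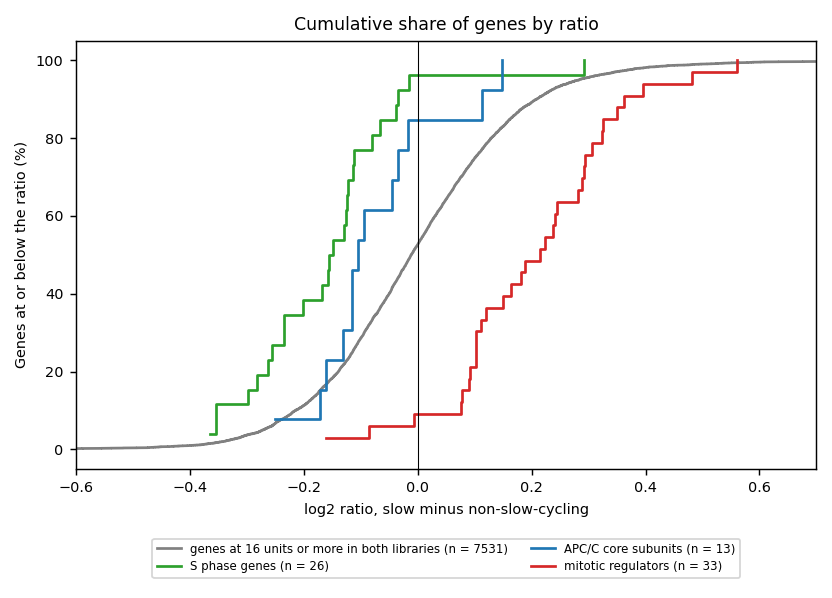
Cumulative share of genes (y axis, percent) at or below each log2 ratio (x axis) for the 33 regulators in red, the 13 core subunits in blue, 26 S phase genes in green and 7531 genes at 16 units or more in both libraries in grey. The red curve lies to the right of the grey, and the blue and green curves lie mostly to its left.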

How the data were processed

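RNA of 2 SK-ES-1 libraries was measured, made with a stranded kit that selects polyadenylated RNA, per the labels' protocols. The submitters' processing notes name hg38 as the build. Which annotation, aligner and counting tool were used is not given in the sources used here. The deposited numbers were read as log2 values, which the file headers call only normalized: none was below 0, and 2 raised to each value minus 1 summed to 983638 and 984120 per library. They keep no read counts, so no counting interval was computed. Lines of 1 gene ID were summed (53826 lines, 53737 genes). Ratios are differences of log2(units + 1), a scale that understates the difference of low genes, and genes at 1 unit or more in at least 1 library were tested. Counts at 1.2-fold and medians were taken with Python 3.11.15 and pandas 2.3.3, after the counting code was tested on simulated data. With 1 library per group the noise of these data is unknown, so that test cannot show how reliable the 1.2-fold counts are. Names, coordinates and promoter sequences came from RefSeq (GRCh38.p14; all 46 members matched by gene ID), and transcript lengths from GENCODE. Of genes with 1 window, 92.2% had the window's start at the RefSeq gene start. The members and lists were chosen with earlier results of these data known, so a threshold of 1.2-fold was set knowing that few mitotic genes reached 1.5-fold. All members are named, and of each outside list up to 3 tested genes with the largest absolute ratio. The rule covers the lists of the report. Every other gene was named after its values were seen: CDT1, LUM, PTPRC, CD3E, the overlapping genes (KIF20A, ALYREF, DIS3, ACBD5, RPL28, ITFG2, RHNO1 and ASCC1) and all genes of the closing observations. Alternatives were other scalings, filters, a pseudocount of 0.1, bins of level, protein-coding genes alone and 1.5-fold.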

Additional observations from a re-analysis of the deposited data

How the results depend on the processing

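Directions of the medians of regulators and core subunits were the same under every alternative run. The count of regulators at least 1.2-fold higher, 12 as reported, was 0 at 1.5-fold. It was 8 with the median of all tested genes set to 0, 15 with 20 bins of level set to 0, and 14 with level, length and GC trends removed, the last chosen after seeing the data. Under these and the other scalings and filters, the difference of the medians ranged from 0.30 to 0.33 and the counts above 0 were 30 regulators and 2 core subunits. Single members moved more: 9 of 46 log2 ratios changed by over 1.5 times and by more than 0.05 with level bins set to 0, as did 8 of 44 with trends removed, and no member changed sign under any alternative. ANLN, DLGAP5 and TPX2 passed 1.2-fold with level bins, the last 2 also with trends removed, and CDC20, TACC3, NUSAP1 and PRC1 fell short of it with the median set to 0. At 16 units or more, BORA and ANAPC10 were not tested. No paired analysis was possible because each group has 1 library. Depth is unknown, so differences such as those of AURKB or BORA cannot be set against counting error.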

Other observations

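Relatives of the members were looked at after the values above were known. AURKC, PLK2 and PLK5, paralogs of the Aurora and Polo-like kinases, were listed at 0 in both libraries, and PLK3 was at 4.47 units in SCCs and 4.51 in non-SCCs. Of 8 further NEK kinases, 6 had a log2 ratio above 0, where 56.2% of all tested genes did. NEK1, a kinase of cilia and the DNA damage response, was at 11.0 and 8.07 units, a log2 ratio of 0.40, and NEK11 was at 5.95 and 4.53 units, a log2 ratio of 0.33. NEK6, NEK7 and NEK9, which act in spindle assembly, had log2 ratios of 0.12, 0.10 and 0.02.

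Of 9 SCF and cullin ubiquitin ligase genes, the other main ligase family of the cell cycle, 5 were above 0 and 4 below. That is near the 56.2% of all tested genes above 0, and the median log2 ratio of the 9 was 0.00. RBX1, the RING subunit of the cullin ligases and a relative of ANAPC11, was at 114 units in SCCs and 141 in non-SCCs, a log2 ratio of -0.29, and was the only gene of this list 1.2-fold apart. FBXW7, the F-box protein that targets cyclin E, was at 8.67 and 7.22 units, a log2 ratio of 0.23. CCNF, a mitotic F-box protein, was at 0.22, and SKP2, the F-box protein that targets the CDK inhibitor CDKN1B, was at -0.09. Among tubulins, TUBB4B was at 882 and 749 units, a log2 ratio of 0.24, while TUBA1B was at -0.15 and TUBB at -0.02.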
